A study of Mus musculus with 4 samples.

Results

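DNA repair genes were examined for peaks of a Malat1 pull-down experiment on chromatin of the breast cancer line 4T1-TGL, which is of mouse origin (BALB/c strain). The 33 genes were chosen by name and function, with earlier results of these data known, and all 33 were found among the 21631 protein-coding genes annotated on chromosomes 1 to 19 and X. They cover homologous recombination (11 genes), damage signalling (5), end joining (5), single-strand break repair (3), mismatch repair (2), nucleotide excision repair (4) and the Fanconi anaemia pathway (3). A gene was counted as holding a peak when the peak's summit lay in the gene body or within 5 kb of either end.

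Breaks of both DNA strands are repaired by homologous recombination, which copies the sister chromatid, or by end joining, which ligates the ends directly. Damaged bases and single-strand breaks, replication errors and bulky adducts go to base excision, mismatch repair and nucleotide excision repair, and the Fanconi anaemia proteins clear crosslinks between strands. The kinases ATM and ATR signal the damage to checkpoints. Mutation of BRCA1, BRCA2 or PALB2 predisposes to human breast cancer, which is where these genes are best known in mammary tissue. Malat1 is a long noncoding RNA that accumulates in nuclear speckles, bodies rich in splicing factors.

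The data came from ChIRP, in which biotinylated antisense oligonucleotides capture a nuclear RNA and the DNA recovered with it is sequenced. The 4 libraries, 1 per group, were pull-downs with probe pools named Even and Odd, a LacZ pull-down and an input, all of wild-type genotype. The files hold 1 list of peaks, called on merged pull-down tags over the input, so no peak had a replicate, no library could be set against another, and the LacZ control could not be compared. The labels and headers do not name the merged pull-downs, and the LacZ library may be one of them, so a peak here cannot be attributed to the Malat1 probes alone. The list held 77823 peaks, 77713 of them on chromosomes 1 to 19 and X. The treatment was shallow, with 851227 tags after duplicate removal, and the input was 58.8 times as deep. Peaks of 3 tags, the fewest in the list, were the most frequent class (37.2% of peaks). At such a depth a summit of 3 tags over the genome mean background has a fold enrichment of 179.5. Folds over the summits at protein-coding genes ran from 6.66 to 1263. For scale, the peak over the Malat1 gene itself held 2818 tags at a fold of 904.

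A summit was present at 28 of the 33 repair genes (84.8%). Among all protein-coding genes the share was 60.8%, and among genes of like length (from 20% shorter to 25% longer than each repair gene) it averaged 77.4%. The 33 genes are long, with a median of 52.3 kb against 17.3 kb for all protein-coding genes. The median count over all genes was 0 at 4 to 8 kb and 6 at 128 to 256 kb. Of the 33, 9 held 1 summit, 5 held 2, 4 held 3, 3 held 4, 5 held 5, and 2 held 8. The genes held 84 summits in all, each belonging to 1 repair gene only, and the local density in the 1 Mb on either side of each gene predicted 86.4. The ratio of these sums was 0.972. Without Brca1 it was 1.05, at 82 observed and 78.1 predicted, and over all protein-coding genes it was 1.05. In number of summits, 11 genes lay above the median of genes of like length, 13 equalled it and 9 lay below it.

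**Figure D1:**
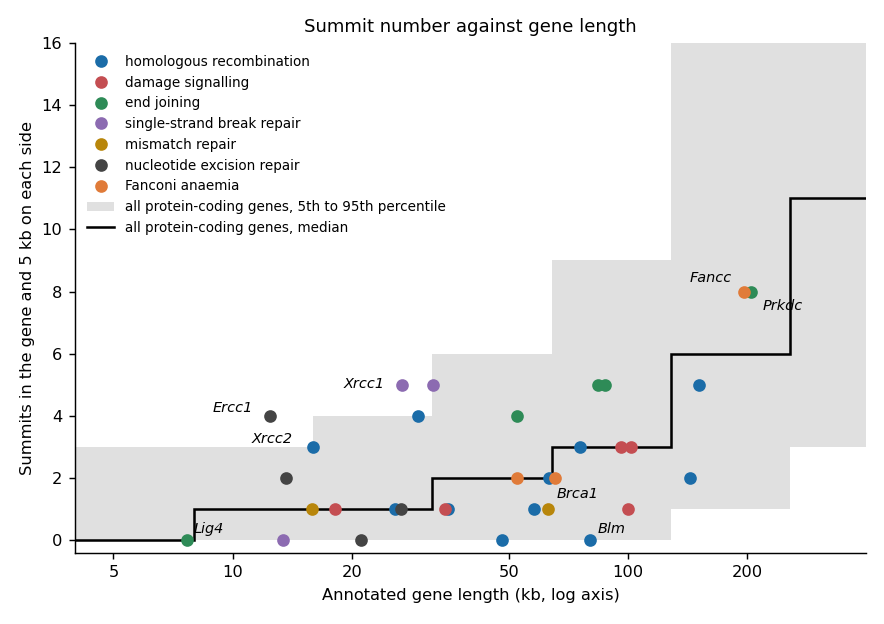
Summits in each of the 33 DNA repair genes and 5 kb on each side (points, coloured by pathway) against annotated gene length in kb on a log axis. The grey band and black line give the 5th to 95th percentile and the median of all protein-coding genes in bins of doubling length; Ercc1 (4 summits) and Xrcc1 (5) lie above the band and the other genes within it.

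Each gene's count was set against its own flanks by a two-sided exact binomial test with Benjamini-Hochberg adjustment over 21420 protein-coding genes. None of the 33 repair genes passed an adjusted p of 0.05 in either direction, and the lowest adjusted p among them was 0.75. Among all tested genes 0.0794% were called higher than their flanks and 0.042% lower. Before adjustment, 4 repair genes had more summits than predicted at p under 0.05 and 1 had fewer, against 4.72% and 0.551% of all genes. The density ratio, a gene's summits over the number its flanks predict, had a median of 0.77 over the 29 repair genes with at least 1 summit predicted (quartiles 0.403 and 1.59). The median over all genes with at least 1 predicted was 0.92 (quartiles 0.525 and 1.48). The ratio was above 1 in 13 of the 29 repair genes (44.8%), against 44.4% of all such genes. With counts this small the test could call only large differences. To be called higher, a repair gene with at least 1 summit predicted would have needed 2.77 to 7.60 times its prediction (median 4.64). None of the 33 could have been called lower even with no summit at all.

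**Figure D2:**
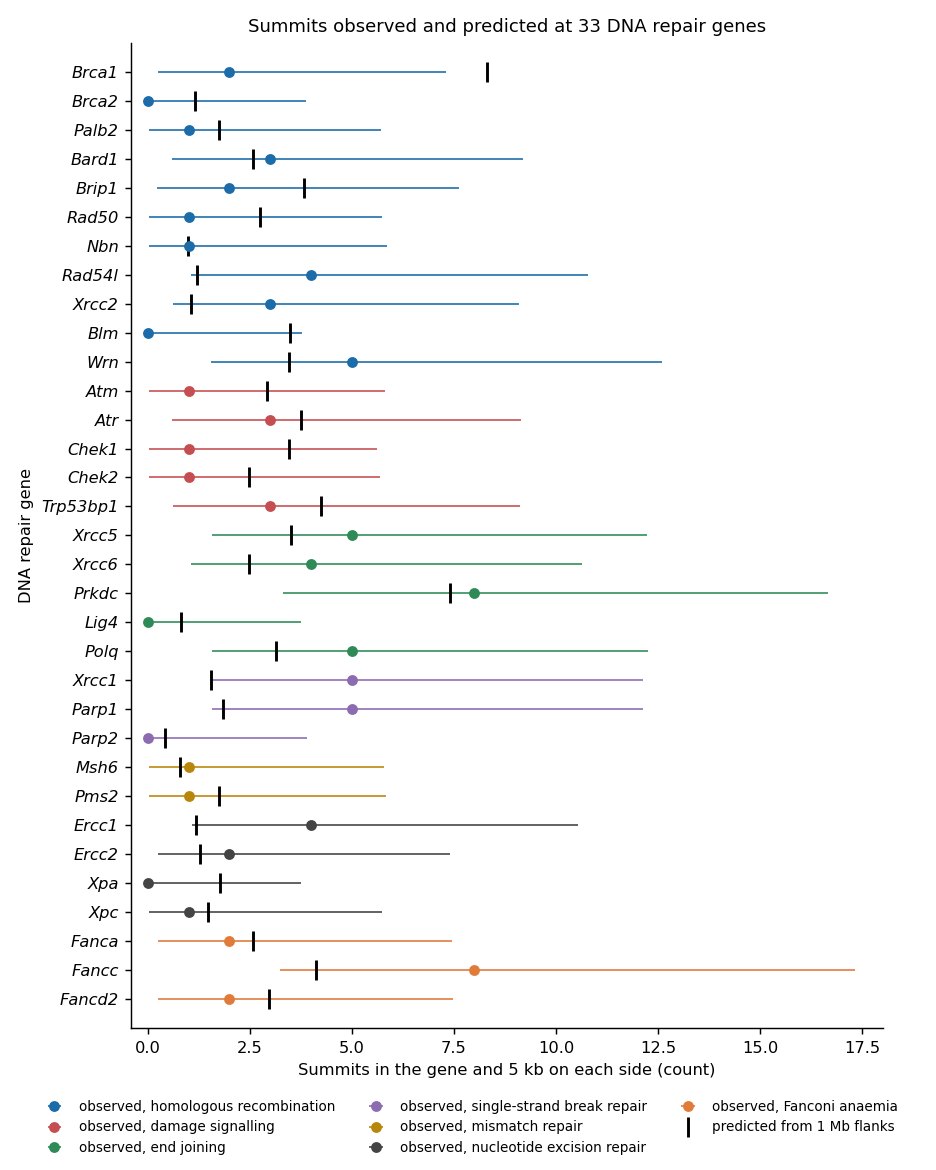
Summits observed in each of the 33 DNA repair genes and 5 kb on each side (points, by pathway) and the number predicted from the 1 Mb flanks (black ticks). Horizontal lines are exact 95% intervals of the observed count relative to the flanks, covering counting error only; they include the prediction for 31 genes, and Brca1 (2 observed, 8.31 predicted) lies farthest below it.

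A summit lay in the window from 250 bases before to 50 bases after the annotated transcription start of 2 genes: Ercc2, which encodes a helicase subunit of the transcription and repair factor TFIIH, and Rad54l, a motor protein of homologous recombination. These windows are shown because no other repair gene with a promoter entry had a summit there. The sequences are from RefSeq (GRCm38.p6), read 5′ to 3′ on the strand of the gene, and capitals mark the bases inside the deposited peak.
Ercc2, chr7:19381767-19382066, plus strand: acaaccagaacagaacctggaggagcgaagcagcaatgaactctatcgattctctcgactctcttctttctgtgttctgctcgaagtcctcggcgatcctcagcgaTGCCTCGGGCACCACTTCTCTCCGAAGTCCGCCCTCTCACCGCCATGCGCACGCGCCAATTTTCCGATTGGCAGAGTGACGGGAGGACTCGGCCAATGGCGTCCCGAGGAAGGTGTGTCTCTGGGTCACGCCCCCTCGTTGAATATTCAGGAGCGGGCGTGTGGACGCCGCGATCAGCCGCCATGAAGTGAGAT
Rad54l, chr4:116123641-116123940, minus strand: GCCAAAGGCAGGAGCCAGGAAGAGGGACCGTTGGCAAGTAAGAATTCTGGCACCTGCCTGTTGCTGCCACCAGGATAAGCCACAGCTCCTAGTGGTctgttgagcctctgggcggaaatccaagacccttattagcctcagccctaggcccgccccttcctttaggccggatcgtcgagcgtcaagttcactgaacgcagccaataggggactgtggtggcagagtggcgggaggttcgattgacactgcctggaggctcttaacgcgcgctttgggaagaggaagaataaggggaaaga
The Ercc2 summit lay 64 bases before the start, in a peak of 13 tags and fold 299 (chromosome 7, 19381873 to 19382080) that covers 194 bases of the window. The Rad54l summit lay 198 bases before the start, in a peak of 5 tags and fold 97.7 (chromosome 4, 116123845 to 116124053) that covers 96 bases of it. The capitals had a GC content of 62.9% in Ercc2 and 57.3% in Rad54l, and the median over the 21045 promoter windows of protein-coding genes was 56.7%. The motif GGGCGG, searched on both strands, occurred once in the Ercc2 window, inside the peak, and at 2 places in the Rad54l window, both outside it; 46.7% of all windows held it. The motif CCAAT, on both strands, occurred at 3 places in the Ercc2 window, all inside the peak, and once in the Rad54l window, outside it; 38.5% of all windows held it. The matches are a description of these letters.

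Promoter windows were listed for 26 of the 33 genes. The 7 others were Rad50, Nbn, Xrcc2, Wrn, Prkdc, Xpc and Fancd2. A summit in the window was thus present at 2 of 26 repair genes (7.69%), against 1.42% of the 17274 protein-coding genes with a window. Within 1 kb of a promoter start lay a summit at 5 of 26 (19.2%), against 8.34% of all. Besides Ercc2 and Rad54l these were Fancc (468 bases after the start, 6 tags), Xrcc6 (471 and 692 bases before it, 3 and 4 tags) and Xrcc1 (525 bases after it, 3 tags). The starts listed for Fancc and Xrcc6 lie inside the annotated genes, 65.5 kb and 28.5 kb from the 5′ end, so these summits are not at the 5′ end of the annotated gene. No test was made of these shares, and the peaks named here at Fancc, Xrcc6 and Xrcc1 held at most 6 tags. A further Xrcc6 peak, of 20 tags and fold 329, lay 858 bases before the annotated 5′ end, far from the listed start.

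Brca1, the ubiquitin ligase subunit that directs breaks to homologous recombination, held 2 summits where its flanks predicted 8.31 (chromosome 11, 101488761 to 101551955, GRCm38). Its peaks had 6 tags at a fold of 185 (101511395 to 101511524) and 3 tags at a fold of 111 (101543496 to 101543626). The ratio was 0.241 (exact 95% interval 0.029 to 0.88), with an exact binomial p of 0.029 before adjustment and 0.80 after it. On its side of higher coordinate lay 2 stretches of dense summits, from 101806273 to 102083789 with 162 summits and from 103168102 to 105179271 with 1381, and Brca1 was in neither. The implied input of a peak is the background of scaled input that its fold implies, given as a multiple of the genome mean. Its lowest value at protein-coding genes was 1.00, so values near 1.00 may mark a floor and not the input itself. The 10 windows of 100 kb between the stretches held 0 to 4 summits each, at a median implied input of 1.23 over all their summits. The window that begins 900 kb from the lower-coordinate end of Brca1 held 3 summits at a median of 14.7. The implied input was 1.30 and 1.07 at the Brca1 peaks, against a median of 17.2 in the nearer dense stretch and 24.5 in the farther one.

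The dense stretch nearest to Brca1 began 254 kb beyond the end of higher coordinate, with a summit at 101806273, and 162 summits lay in the 300 kb from there. Their median fold was 23.5 and their median tag count 17.5. The flank of higher coordinate therefore held 181 summits and the flank of lower coordinate 46, at median implied inputs of 16.9 and 1.21. In the 13 windows of 100 kb from 1 Mb below the start of the gene to 300 kb above it, counts ran from 2 to 9, and the window that holds Brca1 had 2. With flanks of 200 kb, which end before the dense stretch, 2.56 summits were predicted and the ratio was 0.781. Without peaks of implied input above 5, 2.38 were predicted and the ratio was 0.841. Both settings were chosen after the data were seen, and in both the exact binomial p was 1 before adjustment.

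**Figure D3:**
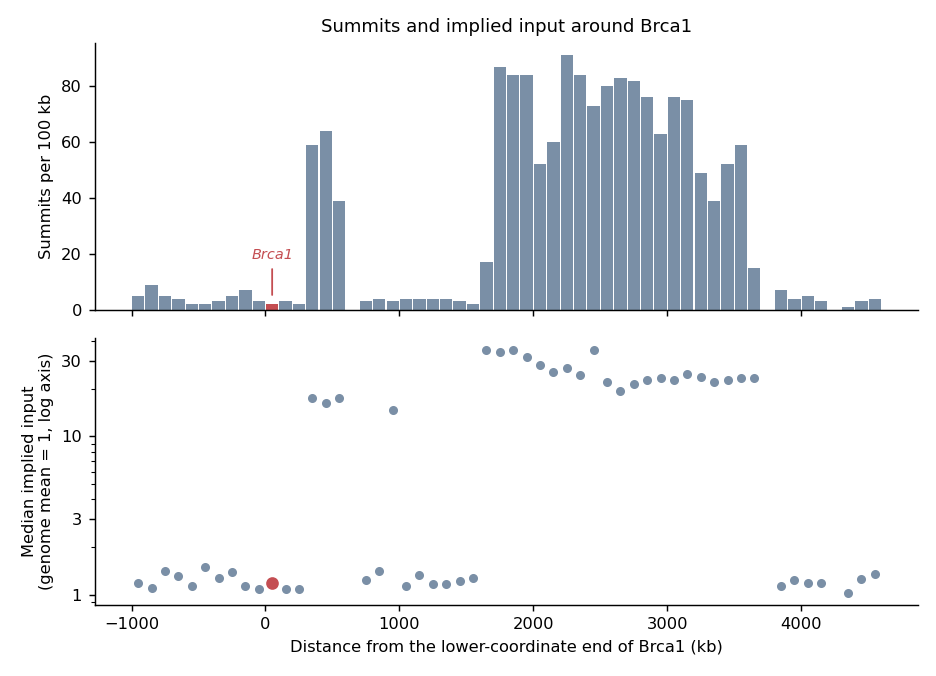
Summits per 100 kb (upper panel, bars) and their median implied input in units of the genome mean (lower panel, points, log axis) by distance in kb from the lower-coordinate end of Brca1. The window that starts at Brca1 is red and holds 2 summits at a median implied input of 1.18. The 3 nearer dense windows, which begin 300 kb away, hold 39 to 64 summits at 16.3 to 17.5. The 21 farther ones, which begin 1600 kb away, hold 15 to 91 at 19.4 to 35.2.

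The other genes of homologous recombination held 20 summits, where their flanks predicted 22.2, and of the 10 genes in the group with at least 1 predicted, Brca1 included, 4 had a ratio above 1. Brca2, which loads the recombinase onto single-stranded DNA, held no summit (1.16 predicted). Palb2, which joins BRCA1 to BRCA2, held 1 of 6 tags and fold 314, 1319 bases after its promoter start and 1414 bases from the neighbouring gene Dctn5. Bard1, the partner of BRCA1 in the ubiquitin ligase, held 3, of 3, 3 and 30 tags. Its strongest peak (chromosome 1, 71061901 to 71062255, fold 361) lay 54.4% of the way along the gene, and a 3-tag peak had its summit 206 bases away. Brip1, a helicase that binds BRCA1, held 2 of 4 and 5 tags where 3.83 were predicted.

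Among the break-processing and helicase genes of this group, Rad50, the structural arm of the MRN complex that senses broken ends, held a single peak of 31 tags and fold 323. At 626 bp this was the longest of the 84 peaks (chromosome 11, 53660223 to 53660848). Nbn, the MRN subunit that recruits ATM, held 1 peak of 3 tags. Rad54l held 4 summits where 1.20 were predicted, a ratio of 3.33 (exact 95% interval 0.878 to 8.96), with exact binomial p of 0.037 before adjustment and 0.87 after it. Xrcc2, a paralogue of the recombinase, held 3 of 6 to 8 tags where 1.05 were predicted. The RecQ helicases differed in their counts: Blm, which dissolves joined recombination intermediates, held none where 3.47 were predicted, and Wrn, a helicase with exonuclease activity, held 5 where 3.46 were predicted. The exact 95% intervals of their ratios, 0 to 1.09 for Blm and 0.446 to 3.63 for Wrn, overlapped.

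Damage signalling genes held 9 summits where their flanks predicted 16.8, and each of the 5 had a ratio below 1. Each interval included 1, however, and the lowest p in the group was 0.27 before adjustment (exact binomial test). Atm, the kinase activated by breaks of both strands, held a single peak, but one of 24 tags with a fold of 593, rank 1020 of 77823 (chromosome 9, 53492069 to 53492403). It lay inside the gene, 44.8% of the way along, at an implied input of 1.01. Atr, the kinase of stalled replication, held 3 summits of 3 to 5 tags. Chek1, its effector kinase, held 1 of 18 tags and fold 178, 1134 bases after its promoter start. Its implied input of 3.02 was the highest of all 84 repair gene peaks, and its flanks, at a median of 2.97, predicted 3.47 summits. Chek2, the effector kinase of ATM, held 1 of 11 tags and fold 329. Trp53bp1, which encodes the scaffold 53BP1 that favours end joining, held 3 peaks of 3 tags each, 2 of them at or beyond its 3′ end inside the overlapping gene Tubgcp4.

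End joining genes held 22 summits where 17.4 were predicted, and the ratio was above 1 in the 4 of 5 genes with at least 1 predicted. All intervals of these ratios included 1. Part of the count lay in the 5 kb margins. Inside the gene bodies lay 4 of the 5 summits of Xrcc5, 3 of 4 of Xrcc6, 5 of 8 of Prkdc and 3 of 5 of Polq. Several of the strongest repair gene peaks lay here. Polq, the polymerase of microhomology-mediated joining, held the peak with the most tags, 53, at a fold of 574 and rank 1136 (chromosome 16, 37044271 to 37044680), in an intragenic position 39.2% along the gene. It held 5 summits where 3.14 were predicted, 2 of them 3305 and 3732 bases before the gene. Prkdc, the catalytic subunit of DNA-dependent protein kinase, is the longest of the 33 genes at 204.8 kb and held 8 summits where 7.41 were predicted. Its strongest peak had 47 tags and a fold of 465 (chromosome 16, 15715123 to 15715627). Of its others, 3 lay outside Prkdc and inside the adjoining replication helicase gene Mcm4, so the summit nearest to the shared end, at 499 bases with 12 tags, cannot be given to one gene.

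The genes of the Ku heterodimer, which binds broken ends, each held a strong peak. Xrcc5 held 5 summits where 3.51 were predicted, with a peak of 35 tags and fold 469 at 6653 bases into the gene (chromosome 1, 72313902 to 72314245). Xrcc6 held 4 where 2.49 were predicted, with peaks of 31 tags (fold 450, chromosome 15, 82032273 to 82032726) and 20 tags (fold 329). The peak of 20 tags lay outside the gene, 858 bases before its annotated 5′ end. The Xrcc6 peaks next to its promoter start also lay 360 and 581 bases inside Desi1, a gene that overlaps the annotated body of Xrcc6. Lig4, the ligase of end joining and the shortest of the 33 genes at 7.66 kb, held no summit where 0.821 were predicted.

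**Figure D4:**
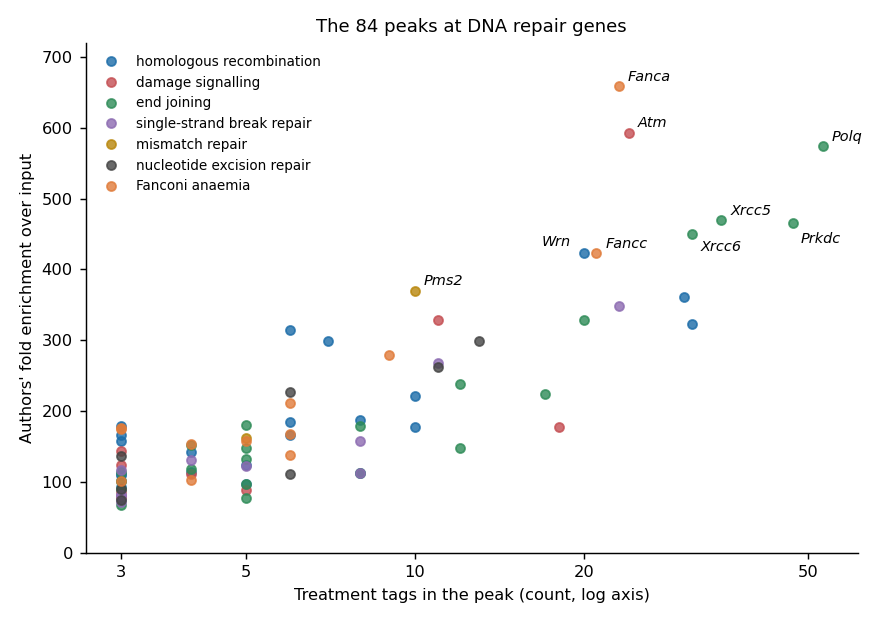
Authors' fold enrichment over input against treatment tags (log axis) for the 84 peaks at DNA repair genes, coloured by pathway, with the 9 of highest fold named. Fanca (23 tags, fold 658), Atm (24 tags, fold 593) and Polq (53 tags, fold 574) had the highest folds, and 26 peaks held 3 tags.

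Single-strand break repair genes held 10 summits where 3.78 were predicted, all at 2 of the 3 genes. Xrcc1, the scaffold of this pathway, held 5 where 1.54 were predicted, of 8, 3, 5, 23 and 11 tags in coordinate order (chromosome 7, gene at 24546699 to 24573438). The first of these, of 8 tags, lay 1636 bases before Xrcc1 and 1605 bases inside the neighbouring gene Pinlyp. Its ratio was 3.24 (exact 95% interval 1.03 to 7.87), with an exact binomial p of 0.023 before adjustment, the lowest of the 33 genes, and 0.75 after it. In the gene body alone it held 4 where 1.14 were predicted (exact binomial p of 0.031 before adjustment and 0.90 after it). Parp1, which senses breaks and is the target of PARP inhibitor drugs, held 5 where 1.83 were predicted (ratio 2.73, exact 95% interval 0.865 to 6.62, exact binomial p of 0.042 before adjustment and 0.90 after it). Its peaks were weak, of 3 to 8 tags, 3 of them at the minimum of 3, and their folds of 71.5 to 130 all lay below the list median of 133. Parp2, a related polymerase, held none where 0.410 was predicted.

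Mismatch repair genes held 2 summits where 2.54 were predicted. Msh6, part of the mismatch-binding heterodimer, held 1 of 5 tags and fold 162, and Pms2, part of the endonuclease that follows it, held 1 of 10 tags and fold 370.

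Nucleotide excision repair genes held 7 summits where 5.68 were predicted. Ercc1, the partner of the nuclease that cuts on the 5′ side of the lesion, held 4 where 1.18 were predicted, a ratio of 3.39 (exact 95% interval 0.908 to 8.95), with an exact binomial p of 0.034 before adjustment and 0.84 after it. This was the highest ratio among the repair genes with at least 1 predicted. It rested on peaks of 3, 6, 3 and 11 tags between 37.9% and 63.1% of the way along a gene of 12.5 kb. The first 2 of these summits lay only 199 bases apart, and the peak of 11 tags also lay 4080 bases from the gene Cd3eap. Ercc2 held 2 where 1.27 were predicted, the peak at its promoter and one of 6 tags. Ercc1 and Ercc2 lie 25.5 kb apart on chromosome 7 and share nearly all of their flanks, so their ratios are not independent. Xpa, which verifies the lesion, held none where 1.77 were predicted, although a summit lay 0.374 kb outside its 5 kb margin. Xpc, the damage sensor, held 1 of 3 tags, 805 bases inside the gene and 952 bases from Lsm3.

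Fanconi anaemia genes held 12 summits where 9.68 were predicted. Fanca, a subunit of the core ligase complex, held the peak of highest fold among the 84, 658 at 23 tags, rank 607 of 77823 (chromosome 8, 123285272 to 123285579). The implied input there was 1.00 and the peak lay 63.6% along the gene. Fancc, another core subunit, held 8 where 4.12 were predicted (ratio 1.94, exact 95% interval 0.785 to 4.21), spread over its 196 kb, with a strongest peak of 21 tags and fold 422; 3 of them lay in the overlapping gene Aopep. Fancd2, the protein that the core complex ubiquitinates, held 2 of 6 and 3 tags where 2.98 were predicted.

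Peaks of many tags and of high fold were present at a larger share of the 33 repair genes than of genes of like length. This is a description, and the difference was not tested. The 33 genes were chosen with earlier results known. The same shares were not computed for the further repair genes described below, so they are not a trait of repair genes in general. A peak of at least 10 tags was present at 17 of 33 (51.5%), against 25.9% of all protein-coding genes and 36.2% of those of like length. A peak of fold 300 or more, a level chosen for this description, was present at 14 of 33, against 15.2% of all and 21.0% of those of like length. Over the 84 peaks the median was 5 tags and fold 153. Over all protein-coding genes it was 5 tags and fold 128, from 46189 pairs of a gene and a summit. In that number a summit shared by several genes counts once for each of them. Of the 84, 26 held 3 tags (31.0%, against 36.6%) and 23 held at least 10 (27.4%, against 23.1%). The median implied input was lower at the repair genes, 1.34 against 1.45, and fold divides the summit height by it; its part in the difference of folds was not tested. The 5 peaks with the most tags carried 25.6% of the 770 tags in all 84.

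Of the 84 summits, 72 lay inside the gene body (85.7%, 95% Wilson interval 76.7 to 91.6, counting error only), against 82.1% over all protein-coding genes, and 9 lay within 1 kb of an annotated end (10.7%, against 7.26%). Where the promoter table gave the strand, 8 of the 9 summits outside the body were on the 5′ side, at 7 genes. Over all protein-coding genes the share was 48.0% of 6586 such pairs of a gene and a summit. With 9 summits the difference was not tested. The 54 body summits of these genes fell as 12, 13, 20 and 9 over 4 equal segments of the gene from 5′ to 3′, which is 22.2%, 24.1%, 37.0% and 16.7%. Over all genes with a strand the shares were 24.3%, 23.8%, 25.4% and 26.5%. Of the summits, 19 at 12 genes were also in or within 5 kb of another protein-coding gene, 11 of them inside its body. In 6 genes (Bard1, Xrcc6, Prkdc, Polq, Ercc1 and Fancc) a pair of neighbouring summits lay 199 to 427 bases apart. These were 10.7% of the 56 neighbouring pairs within 1 repair gene's window, against 7.79% of such pairs over all protein-coding genes. The difference was not tested.

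**Figure D5:**
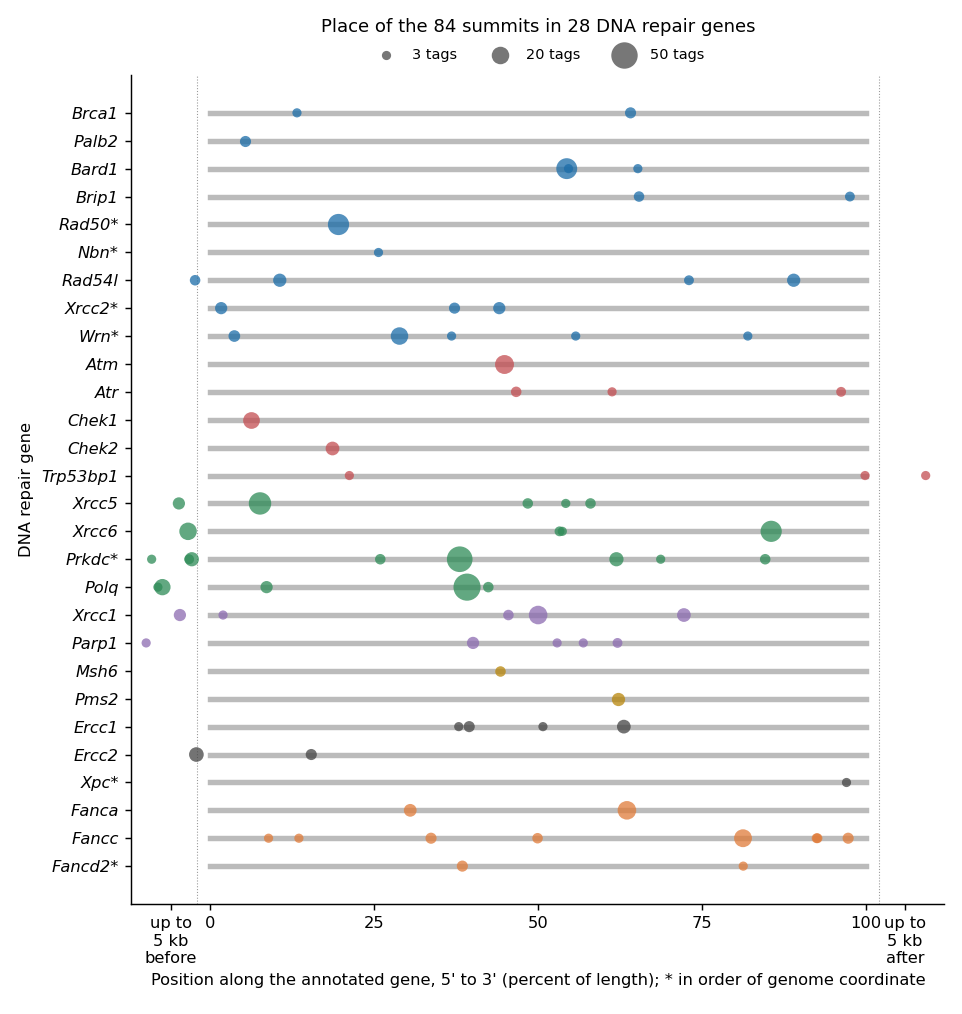
Place of the 84 summits along the 28 DNA repair genes that held one, in percent of annotated gene length from 5′ to 3′ (grey bars), with summits up to 5 kb outside drawn beyond the dotted lines. Point area grows with treatment tags and colour gives the pathway; genes marked with an asterisk had no strand in the promoter table and run in order of genome coordinate. Of the points, 72 lie on the bars and 12 outside.

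A further 118 repair genes, listed by pathway, were counted in the same way. Their median length was 24.1 kb. A summit was present at 79 (66.9%), where genes of like length averaged 64.9%, and their 216 summits stood against 214.0 predicted. None passed the adjusted threshold (lowest adjusted p = 0.46, exact binomial test). Before adjustment 4 of the 118 had more summits than predicted at p under 0.05 and none had fewer. Among all tested genes the shares were 4.72% and 0.551%. Named after their values were seen, the 4 genes were Alkbh3 (7 summits, 1.87 predicted), Faap100 (4, 0.758 predicted), Fancm (5, 1.29 predicted) and Fanci (7, 2.85 predicted). All 4 Faap100 summits lay outside its body, 3 of them inside the neighbouring gene Fscn2. The highest folds were at Fanci, the partner of FANCD2 (78 tags, fold 620), and at Slx4, a nuclease scaffold (31 tags, fold 554). The Slx4 peak lay outside the gene, 3221 bases before its 5′ end. By pathway, the further genes held fewer summits than predicted in 4 groups and more in the other 4. Damage signalling held 9 where 21.9 were predicted, with a summit at 4 of 14 genes, and homologous recombination held 54 where 61.6 were predicted, with a summit at 16 of 25. End joining held 29 where 33.2 were predicted, with a summit at 10 of 12. The ratio was above 1 in 2 of its 8 genes with at least 1 predicted. The 5 end joining genes described above had more than predicted, with part of their summits in the 5 kb margins. Mismatch repair held 9 where 12.3 were predicted, with a summit at 5 of 5. Fanconi anaemia genes held 28 where 16.3 were predicted, with a summit at 9 of 14, and nucleotide excision repair genes 30 where 24.3 were predicted, with a summit at 15 of 19. Single-strand break repair genes held 19 where 15.0 were predicted, with a summit at 12 of 19, and the genes of translesion synthesis and direct reversal held 38 where 29.3 were predicted, with a summit at 8 of 10. No group was tested.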

How the data were processed

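ChIRP DNA was sequenced as single reads of 76 nt, per the labels' protocols. MACS 1.4.4 called the peaks on merged treatment tags over input, at a cutoff of 1e-05 and with 1 tag kept per position, per the file headers. Coordinates are GRCm38 (mm10), per the submitters' processing notes. The merged libraries and the aligner are not given in the sources used here. Deposited tag counts are treatment tags in a peak, unscaled. The authors' fold enrichment is a ratio, summit height over the local background of the scaled-down input. The deposited score is the log-scaled MACS p-value and was only checked to match between lists. The deposited summit signal is the pileup height. The deposited false discovery rate, in percent, is 0 throughout. These are the authors' own values for each peak.

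Genes, strands and promoter windows came from RefSeq tables of the same build. Implied input is summit height over fold, divided by the genome-wide background (0.0167 tags per fragment of 53 bp). Summits in a gene and 5 kb on each side were compared with the next 1 Mb on each side (cut at the outermost gene or summit of a chromosome) by a two-sided exact binomial test in scipy 1.17.1, with Benjamini-Hochberg adjustment over genes with a summit in either; the code was tested on simulated data. Exact interval and two-sided p treat the tails differently, so a p below 0.05 can accompany an interval that includes 1. Intervals cover counting error only, and p-values describe this list, not replicates. Members given in full had the most summits, tags or fold, the highest or lowest ratios, or no summit. Members and lists were chosen with earlier results of these data known. Alternatives were other windows, flanks, peak subsets and overlap rules.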

Additional observations from a re-analysis of the deposited data

How the results depend on the processing

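The count of repair genes called against their flanks stayed at 0 under each of 13 alternatives, with lowest adjusted p between 0.27 and 1 where it was computed, and the summits inside gene bodies stayed between 82.6% and 90% over 5 other choices of peaks. The mean share with a summit among genes of like length was 77.1% and 77.6% under a wider and a narrower length limit. The number of repair genes with a summit ran from 25 to 30 of 33, or 27 of 32 without Brca1, except with peaks of at least 10 tags, where it was 17. The median ratio over the flanks ran from 0.70 to 0.84, except with peaks of at least 10 tags, where it was 0.486 over only 4 genes. The number of all protein-coding genes called, 26 with the settings used above, was 16 with the gene body alone, 43 with 10 kb on each side, 11 with flanks of 500 kb and 65 with flanks of 2 Mb. It was 0 with peaks at or above the median fold (exact binomial test, lowest adjusted p = 0.575). Chosen after the data were seen, flanks of 200 kb gave 8, leaving out peaks of implied input above 5 gave 4, and merging summits within 500 bp gave 17. Of 396 recomputed ratios of single repair genes, 374 stayed inside the exact interval of the first value and 22 did not. The Brca1 ratio ran from 0 with peaks of at least 10 tags to 0.841 without peaks of implied input above 5. Parp1 held no summit among peaks at or above the median fold. No paired analysis was possible because each group has 1 library and the list is of merged libraries. At this depth no repair gene could be called at under 2.77 times its predicted count.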
